A study of Mus musculus with 24 samples.

Results

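The genes described here encode the enzymes of xenobiotic metabolism, taken as all protein-coding mouse genes of the cytochrome P450 families Cyp1 to Cyp4, the UDP-glucuronosyltransferase families Ugt1a and Ugt2, the glutathione S-transferases (Gst) and the sulfotransferases (Sult). The Gst genes were those of the alpha, mu, pi, theta, omega, kappa and zeta classes. The rule used the gene symbol and no measured value, although it was set with earlier results of these data known, and it comprised 143 of the 45706 genes in the count tables. They fell into 3 Cyp1, 49 Cyp2, 9 Cyp3, 20 Cyp4, 9 Ugt1a, 10 Ugt2, 22 Gst and 21 Sult genes. RNA-Seq was performed on C57BL/6N mouse organoids grown from crypts of the proximal small intestine (SI) and the colon (COL). Cultures carried BraffloxV600E/+;Villin::CreERT2 (BRAF), Trp53LSL-R172H/+;Villin::CreERT2 (p53) or both conditional alleles with the same Cre (BRAFp53), so that all groups, controls included, shared the tamoxifen-inducible Cre driven by the epithelial Villin promoter. The induced (on) libraries came from organoids given 4-hydroxytamoxifen (4-HT) for 24 h, at 0.5 µM in SI and 3.5 µM in COL, and the non-induced (off) libraries from organoids given ethanol. RNA was taken on day 8 after recombination in SI and on day 3 in COL, and the COL medium held Wnt3a and CHIR99021 in addition. There were 2 libraries in each of 12 groups, and each genotype and tissue was 1 culture from 1 donor mouse. P-values of on against off thus measure the spread between libraries of a culture. The study lists 3 donor mice, 1 per genotype, so the SI and COL cultures of a genotype may share a donor. Levels of Xist, given below, nevertheless differed between the tissues for p53 and BRAFp53. None of the libraries analysed here came from a culture without a conditional allele that was given 4-HT, so in these data exposure to the drug and recombination cannot be told apart.

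Xenobiotic metabolism proceeds in stages. Cytochromes P450 oxidise lipophilic compounds with electrons from NADPH, and the transferases then attach glucuronic acid (Ugt), glutathione (Gst) or sulfate (Sult), which makes the products soluble for export by efflux pumps. In the intestine these enzymes are found mainly in the absorptive cells of the small-intestinal villus, and many are transcribed in response to ligand-bound receptors such as AHR, PXR and CAR or to the oxidant-responsive factor NRF2. Many of the same enzymes also handle endogenous lipids, steroids, bile acids and bilirubin.

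The COL libraries held 51.2 to 78.2 M counts (M, 1e+06 counts) and the SI libraries 44.4 to 68.2 M, of which the 143 genes took 0.479% to 1.03% in COL and 1.77% to 3.87% in SI. Of the 143 genes, 8 had no count in any library and 53 stayed under 1 CPM (counts per 1e+06 counts, scaled between libraries) in every library. The filter on low counts left 91 in the COL fit and 92 in the SI fit, and the 52 and 51 others were not tested there. Trp53, the gene whose mutant allele recombination releases, was higher on than off by 0.94 ± 0.13 (log2 fold change ± SE, adjusted p = 0.000623) in COL BRAFp53 and by 0.94 ± 0.13 (adjusted p = 0.0227) in COL p53. It was also higher by 0.52 ± 0.13 (adjusted p = 0.0236) in SI BRAFp53, while SI p53 gave 0.76 ± 0.13 (adjusted p = 0.194). In the BRAF cultures, which carry no conditional Trp53 allele, Trp53 was lower on than off, at -0.44 ± 0.13 (adjusted p = 0.0332) in COL and -0.62 ± 0.13 (adjusted p = 0.00351) in SI. Braf gave 0.44 ± 0.15 (adjusted p = 0.0595) in COL BRAF and 0.50 ± 0.20 (adjusted p = 0.0666) in SI BRAF, and counts per gene cannot separate mutant from wild-type transcripts. The SI BRAF on library of replicate 1 held 17.1 CPM of Xist, the transcript of the inactive X chromosome, against 0.234 to 0.471 CPM in the other libraries of that culture. The other SI cultures held 115 to 166 CPM, and COL libraries at most 0.0395 CPM. Xist and the Y-linked markers together summed to 80.5 to 171 CPM in COL and 122 to 150 CPM in SI BRAF, mostly from Y-linked transcripts. In SI p53 and BRAFp53 that sum, 115 to 166 CPM, spanned the same range as Xist. The levels of Xist and of Y-linked transcripts therefore cannot be told apart from BRAF against the other genotypes in SI. Nor can they be told apart from COL against SI in the p53 and BRAFp53 cultures, while the COL cultures did not differ in this way. The COL BRAF culture also held 32.1 to 49.4 CPM of the small-intestinal factor Gata4, against at most 2.67 CPM in the other COL cultures and 80.1 to 119 CPM in SI. Gata4 is 1 of 6 small-intestine position markers. Off, their sum was 284 to 336 CPM in COL BRAF, 372 to 489 CPM in COL BRAFp53 and 129 to 191 CPM in COL p53. In SI it was 340 to 418 CPM, so the whole list did not set COL BRAF apart. Colon position markers summed to 1475 to 1504, 3530 to 4365 and 13756 to 18171 CPM in the same COL cultures, and at most 11.6 CPM in SI. Because of Xist, leading values of the SI BRAF arm are also given without its on library of replicate 1.

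Several members are near copies of each other, which decides how far a read can be assigned to 1 gene. By protein, 54 of the 143 were at least 90% identical to another member or belonged to the Ugt1a cluster, whose genes share their last exons. The closest pairs among the genes below are shown as the same 75 coding bases of each copy, 5′ to 3′ in GRCm38, with the bases that differ between the pair in capitals. Gsta1 and Gsta2 differed at 13 of 666 aligned coding bases, and the stretch from exon 6 of 7 shown here, chr9:78241546-78241620 on the plus strand and chr9:78332125-78332199 on the minus strand, held 5 of them:
Gsta1: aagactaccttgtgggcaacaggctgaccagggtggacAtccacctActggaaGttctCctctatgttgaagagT
Gsta2: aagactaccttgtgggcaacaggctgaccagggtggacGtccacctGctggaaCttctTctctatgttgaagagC
Gstp1 and Gstp2 differed at 12 of 630 coding bases, with 6 in this stretch of exon 5 of 7, chr19:4036694-4036768 and chr19:4040988-4041062, both on the minus strand:
Gstp1: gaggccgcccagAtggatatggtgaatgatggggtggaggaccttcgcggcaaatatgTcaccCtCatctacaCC
Gstp2: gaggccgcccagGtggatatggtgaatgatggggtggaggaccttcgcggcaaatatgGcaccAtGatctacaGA
Ugt2b5 and Ugt2b38 differed at 47 of 1590 coding bases, with 10 in this stretch of exon 6 of 6, chr5:87125280-87125354 and chr5:87410275-87410349, both on the minus strand:
Ugt2b5: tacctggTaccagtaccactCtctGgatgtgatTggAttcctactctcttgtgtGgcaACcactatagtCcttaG
Ugt2b38: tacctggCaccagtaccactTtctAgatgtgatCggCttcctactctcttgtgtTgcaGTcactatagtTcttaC
Of all distinct 50-base windows in their annotated transcripts, 90.5% of Gsta1 and 49.8% of Gsta2 also occurred in another gene. The same share was 33.7% for Gstp1, 54.3% for Gstp2, 41.7% for Ugt2b5 and 37.4% for Ugt2b38. Counts of these genes, of Cyp2c68 (43.3%), Cyp3a25 (26.8%), Gstm3 (28.8%) and of the Ugt1a genes are uncertain to that extent.

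The off libraries are ethanol controls kept in parallel with the on libraries, with RNA taken on day 3 in COL and day 8 in SI. Tissue, day of RNA isolation and medium thus differ together between the off tissues and cannot be told apart. Most enzymes stood lower in COL than in SI. Comparing 3 COL cultures with 3 SI cultures, 51 of the 94 members tested were lower in COL and 10 were higher, where 12.6% of all genes tested were lower and 17% higher. The median log2 difference of COL against SI was -1.34 over the members and 0.08 over all genes. All 15 Gst genes that passed the test were lower in COL, as were 6 of 8 Ugt1a, 5 of 6 Ugt2 and 15 of 31 Cyp2 genes, whereas 6 Cyp2 genes were higher. Per length of exon, the most abundant member in SI was the mu-class transferase Gstm1 at 4441 ± 1479 CPM per kb (SD, n = 3 cultures), followed by the alpha-class Gsta1 at 3153 ± 1007 and Gstm3 at 2732 ± 1031, whose spreads overlap. Gstp1, Cyp2b10 and Gsta4 came next at 649.6 ± 86.6, 592 ± 106 and 523 ± 142 CPM per kb. In COL, Gstm1 at 564 ± 220.1, the arachidonate-metabolising P450 Cyp2c55 at 505 ± 331 and Gsta1 at 336 ± 141 CPM per kb led the order and did not differ beyond their spread.

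**Figure D1:**
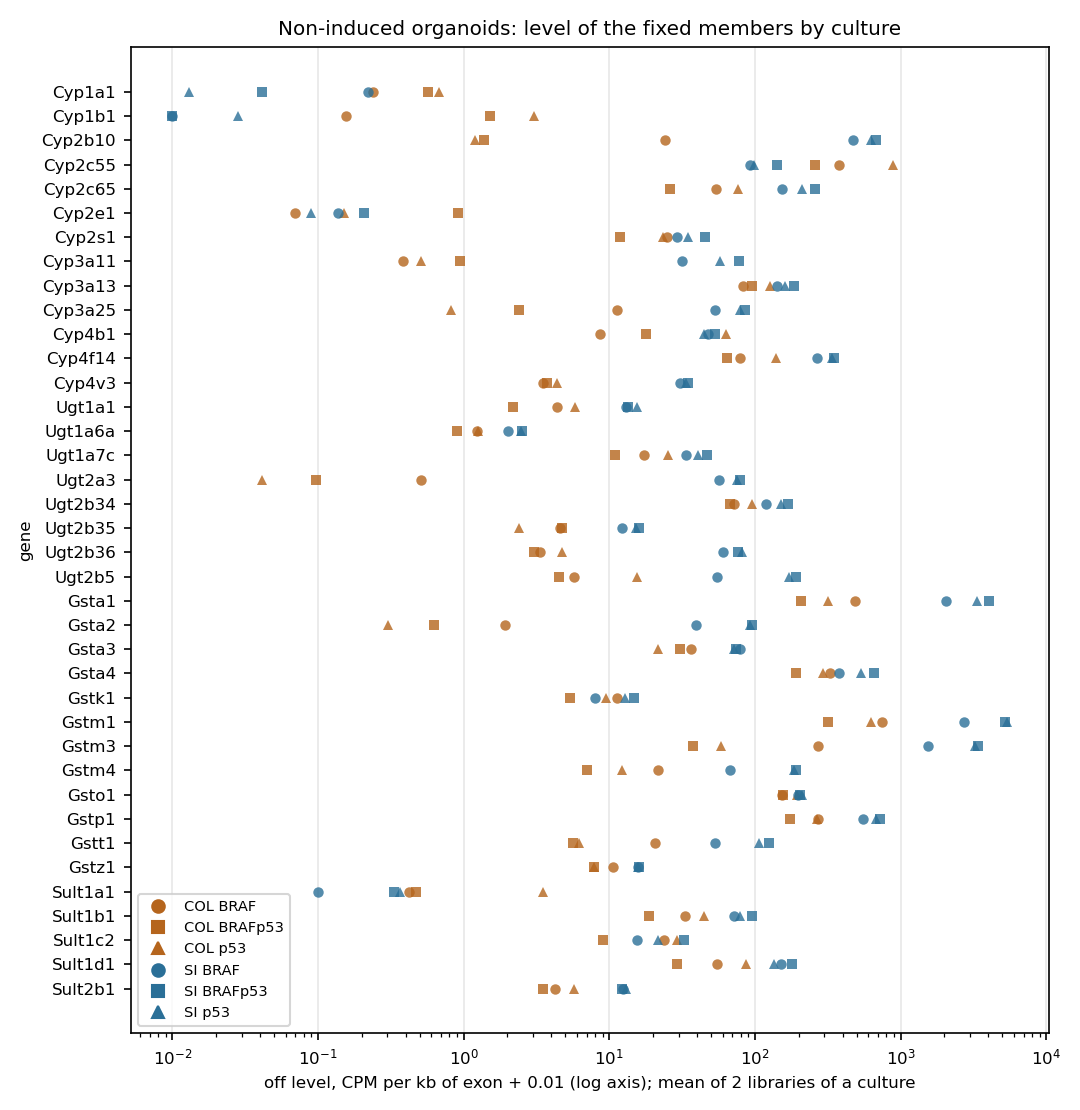
Off levels of the 38 members fixed by name, as CPM per kb of exon plus 0.01 on a log axis; each point is the mean of the 2 libraries of a culture, brown for COL and blue for SI, with the shape giving the genotype. The SI points lie to the right for most genes, Cyp2c55 and Cyp1b1 are reversed, and the COL BRAF circles stand apart from the other COL points for Cyp2b10 and Gstm3.

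Among the P450 genes, Cyp2b10, a classic target of CAR, was at 51.3, 2.9 and 2.51 CPM (means of 2 libraries) in the COL BRAF, BRAFp53 and p53 cultures and at 1001, 1432 and 1315 CPM in the same order in SI, a log2 difference of COL against SI of -6.02 ± 1.33 (adjusted p = 0.016). The COL BRAF culture, which expressed Gata4, was the highest of the COL cultures for this gene. Cyp3a11, the main inducible Cyp3a of the mouse, was at 1.91, 4.74 and 2.54 CPM in COL and at 161, 396 and 294 CPM in SI (-6.50 ± 0.52, adjusted p = 0.00107), with no overlap. Cyp2c29 was lower in COL as well (-9.47 ± 0.95, adjusted p = 0.00168). Cyp2c38 had 0 counts in the 6 COL off libraries and 5514 in SI, hence at least 2357-fold lower in COL against a floor of 3 counts over the group. Ugt1a9 had 1 count in COL against 5679 in SI, a ratio of SI to COL of 7452 with an exact 95% counting interval of 1337 to 294396. Ugt2a3, which glucuronidates bile acids, was lower in COL (-8.38 ± 1.004, adjusted p = 0.00262), as were Sult6b2 (-7.35 ± 1.18, adjusted p = 0.0056) and Gsta2 (-6.30 ± 0.80, adjusted p = 0.00298). For Sult6b2 the SI cultures themselves ranged widely, at 8.55, 96.4 and 88.1 CPM.

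The genes that stood higher in COL were few and nearly all P450s. Cyp2c55 was at 751, 515 and 1759 CPM in COL and 184, 283 and 197 CPM in SI (2.22 ± 0.47, adjusted p = 0.0137). The dioxin-inducible Cyp1b1 was at 0.848, 8.81 and 17.8 CPM in COL and at 0, 0 and 0.106 CPM in SI (7.91 ± 1.58, adjusted p = 0.0112). In the Cyp2d cluster, Cyp2d9 (3.61 ± 0.69, adjusted p = 0.00969) and Cyp2d34 (2.26 ± 0.60, adjusted p = 0.0291) were higher, while Cyp2d12 had 3049 counts in COL and 0 in SI, at least 750.1-fold higher. Cyp2d22 of the same cluster went the other way (-5.59 ± 0.79, adjusted p = 0.00403), and neighbours in the cluster share sequence (21.8% of 50-base windows for Cyp2d9). The enterocyte and colonocyte marker list moved with the members here, with 15 of 22 markers lower in COL and 0 higher. Markers of other cell types differed as well, and 5 of 7 stem cell markers were higher in COL and 1 lower. Higher in COL, with none lower, were 5 of 7 goblet, 4 of 7 Paneth, 3 of 4 tuft, 3 of 6 enteroendocrine and 2 of 5 stromal and immune markers tested. The part of these markers in the result was not tested. Without the 2 SI cultures that expressed Xist, 1 SI culture was left and 13 members were called in place of 61 (12 lower, 1 higher). Without the COL BRAF culture, which held Gata4, 60 were called (48 lower, 12 higher). The log2 difference of Cyp2c55 was then 2.48, adjusted p = 0.171, and that of Cyp2b10 -5.71, adjusted p = 0.115. Leaving out the SI BRAFp53 culture ended the call of Cyp2d34 (2.11, adjusted p = 0.101), and leaving out the SI p53 culture that of Cyp2c55 (2.14, adjusted p = 0.0601).

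Induction was then compared with the ethanol control in each of the 6 arms, by edgeR's quasi-likelihood test with Benjamini-Hochberg adjustment over all genes of a tissue. Among the members called in the BRAF culture, more fell than rose in COL and more rose than fell in SI. In COL BRAF, 23 of 91 members tested fell and 7 rose, against 9.61% and 10.3% of all genes. COL BRAFp53 had 17 members lower and 9 higher, with 7.76% and 9.95% of all genes. SI BRAF had 37 of 92 members higher and 6 lower, where the shares over all genes were 17.5% and 14.2%. SI BRAFp53 had 13 higher and 12 lower, where they were 6.98% and 4.53%. The median log2 fold change of the members was -0.31 in COL BRAF, -0.30 in COL BRAFp53, 0.59 in SI BRAF and -0.25 in SI BRAFp53, and that of all genes lay between -0.06 and -0.01. The summed level of the 143 genes, which a few abundant transferases and Cyp2 genes dominate, was 6620 to 7134 CPM off and 8231 to 9999 CPM on in COL BRAF, and 17511 to 20371 CPM off and 41952 to 50046 CPM on in SI BRAF. It was thus higher in the on libraries of both tissues, although more members were called lower in COL. Within it, the Gst genes summed to 3503 to 4006 CPM off and 4639 to 5536 CPM on in COL BRAF. In BRAFp53 the sums over all members were 4067 to 4340 CPM off and 5080 to 7126 CPM on in COL, and 29425 to 32278 CPM off and 39571 to 43214 CPM on in SI. In COL p53, 2 members passed, where 0.142% of all genes did, and in SI p53 none passed, where the share of all genes was 0%. Without the SI BRAF on library that held Xist, 1 on library was left there, and the leading members of SI BRAF kept their direction, with values given below. Without the COL BRAFp53 on library of replicate 2, the split in that arm became 17 higher and 10 lower in place of 9 and 17.

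**Figure D2:**
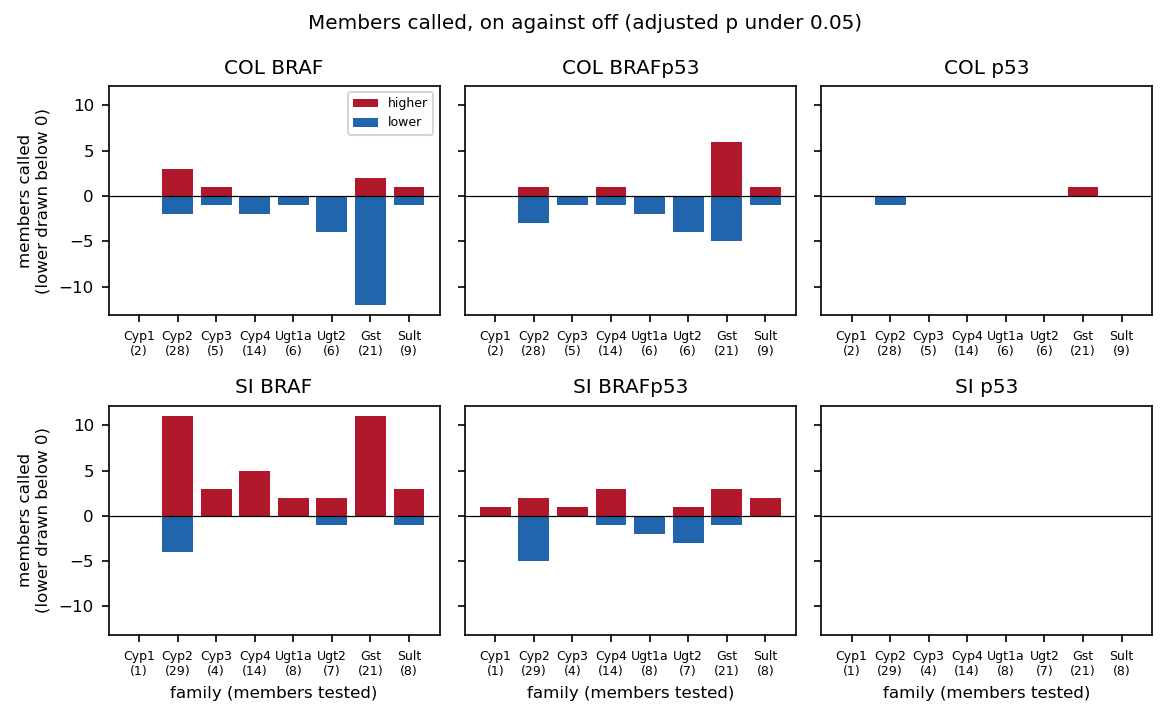
Members called at an adjusted p under 0.05 in the 6 arms, by family; red bars above 0 count genes higher on than off and blue bars below 0 count genes lower on than off, with the number tested under each family. In COL BRAF 12 Gst genes fell and 2 rose, while in SI BRAF 11 Gst genes rose and none fell; both p53 arms are almost empty.

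The calls are given here by family, as counts with no test between families. In COL BRAF most of the genes that fell were transferases, with 12 of 21 Gst and 4 of 6 Ugt2 genes lower, while 3 of 28 Cyp2 genes rose and 2 fell, with 10.3% of all genes higher and 9.61% lower in that arm. COL BRAFp53 also had 4 of 6 Ugt2 genes lower, but 6 Gst genes higher and 5 lower (9.95% and 7.76% of all genes). In SI BRAF, 11 of 29 Cyp2, 3 of 4 Cyp3, 5 of 14 Cyp4, 11 of 21 Gst, 3 of 8 Sult, 2 of 8 Ugt1a and 2 of 7 Ugt2 genes rose, and the 6 that fell were 4 Cyp2, 1 Sult and 1 Ugt2 gene, where 17.5% of all genes rose and 14.2% fell. The Cyp2 counts of COL BRAF and the falls among Cyp2 genes in SI BRAF thus lay near the shares of all genes. In SI BRAFp53, 1 Cyp1, 2 Cyp2, 1 Cyp3, 3 Cyp4, 1 Ugt2, 3 Gst and 2 Sult genes rose. Those that fell there were 5 Cyp2, 1 Cyp4, 2 Ugt1a, 3 Ugt2 and 1 Gst gene (6.98% of all genes higher and 4.53% lower).

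Markers of the absorptive lineage changed in the same arms. In SI BRAF, 19 of 22 enterocyte and colonocyte markers rose and 1 fell, and their summed level went from 14426 to 18677 CPM off to 61951 to 70792 CPM on. SI BRAFp53 had 9 higher and 7 lower, with sums of 25348 to 30084 CPM off and 39780.5 to 40299 CPM on. In COL BRAF 8 rose and 5 fell, with sums of 2773 to 2876 and 3858 to 4409.6 CPM. In COL BRAFp53 3 rose and 7 fell, with 2499 to 3009.7 and 2869.6 to 4296 CPM. Stem cell markers fell for 6 of 7 genes in COL BRAF, COL BRAFp53 and SI BRAF and for 1 of 7 in SI BRAFp53. Of 7 goblet markers, 5 rose in COL BRAF, 5 in COL BRAFp53, 4 in SI BRAF and 7 in SI BRAFp53. Of 7 Paneth markers, 2 rose in COL BRAF and 4 in SI BRAFp53, 4 fell in SI BRAF, and 2 rose and 1 fell in COL BRAFp53. All 4 tuft markers tested fell in SI BRAF and 2 fell in COL BRAFp53, while 3 enteroendocrine markers rose in COL BRAF and 2 in COL BRAFp53. Of 11 stromal and immune markers, 9 were tested in COL and 4 in SI. Of those tested, 3 rose in each COL arm with BRAF, 1 in SI BRAF and 2 in SI BRAFp53, and none fell. The summed level of all 11 was 35.3 to 39.5 CPM off and 55.6 to 64.1 CPM on in COL BRAF, and 48.5 to 56.9 and 102 to 105 CPM in COL BRAFp53. In SI it was 8.59 to 13.4 CPM off and 20.5 to 26.2 CPM on in BRAF, and 11.2 to 12.4 and 25.7 to 28 CPM in BRAFp53. The markers that rose were Cd14, Cd68 and Vim in COL, Cd14 in SI BRAF, and Cd14 and Vim in SI BRAFp53. The other 8 markers of the list held at most 1.48 CPM in any library, and among them the endothelial marker Cdh5 and the fibroblast marker Col3a1 reached at most 0.201 and 0.0829 CPM. The part of these shifts in the enzyme values was not tested, and more cells of a type cannot be told apart from more RNA per cell in bulk samples.

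**Figure D3:**
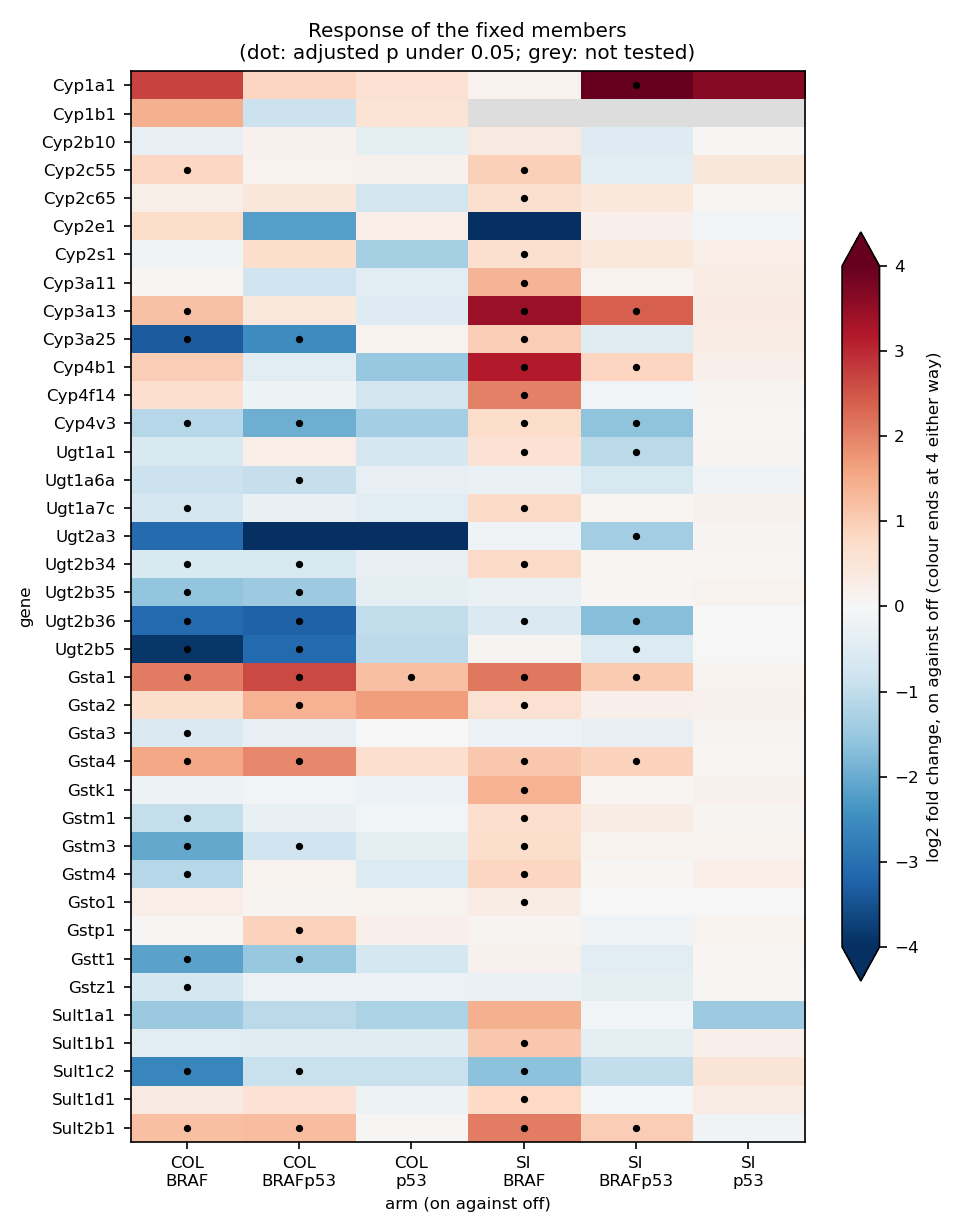
Log2 fold change, on against off, of the 38 members fixed by name in the 6 arms; red is higher on, blue is lower on, the colour ends at 4 either way, a dot marks an adjusted p under 0.05 and grey marks a gene not tested. Gsta1, Gsta4 and Sult2b1 are red with a dot in every BRAF-bearing arm, Ugt2b36 is blue with a dot in the same arms, and Gstm3 and Gstm4 change colour between COL BRAF and SI BRAF.

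Among the members that passed in every BRAF-bearing arm, 3 of the 82 tested in both tissues rose in all of them, a share of 3.66% against 2.51% of all genes. Gsta1, an alpha-class transferase and NRF2 target (ENSMUSG00000074183, chr9:78230656-78242684), was at 451 and 477 CPM in the off and 2315 and 1603 CPM in the on libraries of COL BRAF, a log2 fold change of 2.07 ± 0.20 (adjusted p = 4.61e-05). In COL BRAFp53 it went from 201 and 194 to 1495 and 968 CPM (2.65 ± 0.20, adjusted p = 2.58e-05). In SI BRAF it went from 2201 and 1745 to 8101 and 9593 CPM (2.12 ± 0.14, adjusted p = 3.13e-07, and 2.24 without the library with Xist). In SI BRAFp53 it rose from 3903 and 3842 to 7918 and 8544 CPM (1.05 ± 0.14, adjusted p = 0.000254). In each of these arms both on libraries stood above both off libraries. Its near copy Gsta2 stood far lower, with 51.8 and 41.5 CPM off and 70.4 and 77.6 CPM on in SI BRAF (0.62 ± 0.16, adjusted p = 0.00813), and it rose in COL BRAFp53 as well (1.38 ± 0.41, adjusted p = 0.0359). With 90.5% of the windows of Gsta1 present in other genes, the split of reads between them is uncertain.

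Gsta4, which conjugates the lipid peroxidation product 4-hydroxynonenal, went from 426 and 408 to 1358 and 1106 CPM in COL BRAF (1.56 ± 0.16, adjusted p = 8.75e-05) and from 262 and 224 to 1082 and 747 CPM in COL BRAFp53 (1.91 ± 0.16, adjusted p = 4.06e-05). In SI BRAF its libraries were at 521 and 428 CPM off and 1019 and 1068 CPM on (1.09 ± 0.12, adjusted p = 2.25e-05). In SI BRAFp53 they were at 859.9 and 808 CPM off and 1557 and 1666 CPM on (0.91 ± 0.12, adjusted p = 0.000285). Gsta4, whose transcripts held no 50-base window found in another gene, was higher in both on libraries of every arm here. Sult2b1, which sulfates cholesterol and other sterols, rose from 17.5 and 15.7 to 39.3 and 38 CPM in COL BRAF (1.21 ± 0.21, adjusted p = 0.00214) and from 56.3 and 42.1 to 199.9 and 220.2 CPM in SI BRAF (2.05 ± 0.14, adjusted p = 3.5e-07). In BRAFp53 it rose in COL (1.25 ± 0.21, adjusted p = 0.00219) and in SI (0.98 ± 0.14, adjusted p = 0.00041). Leaving out the library with Xist gave 1.13 for Gsta4 and 2.13 for Sult2b1 in SI BRAF.

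**Figure D4:**
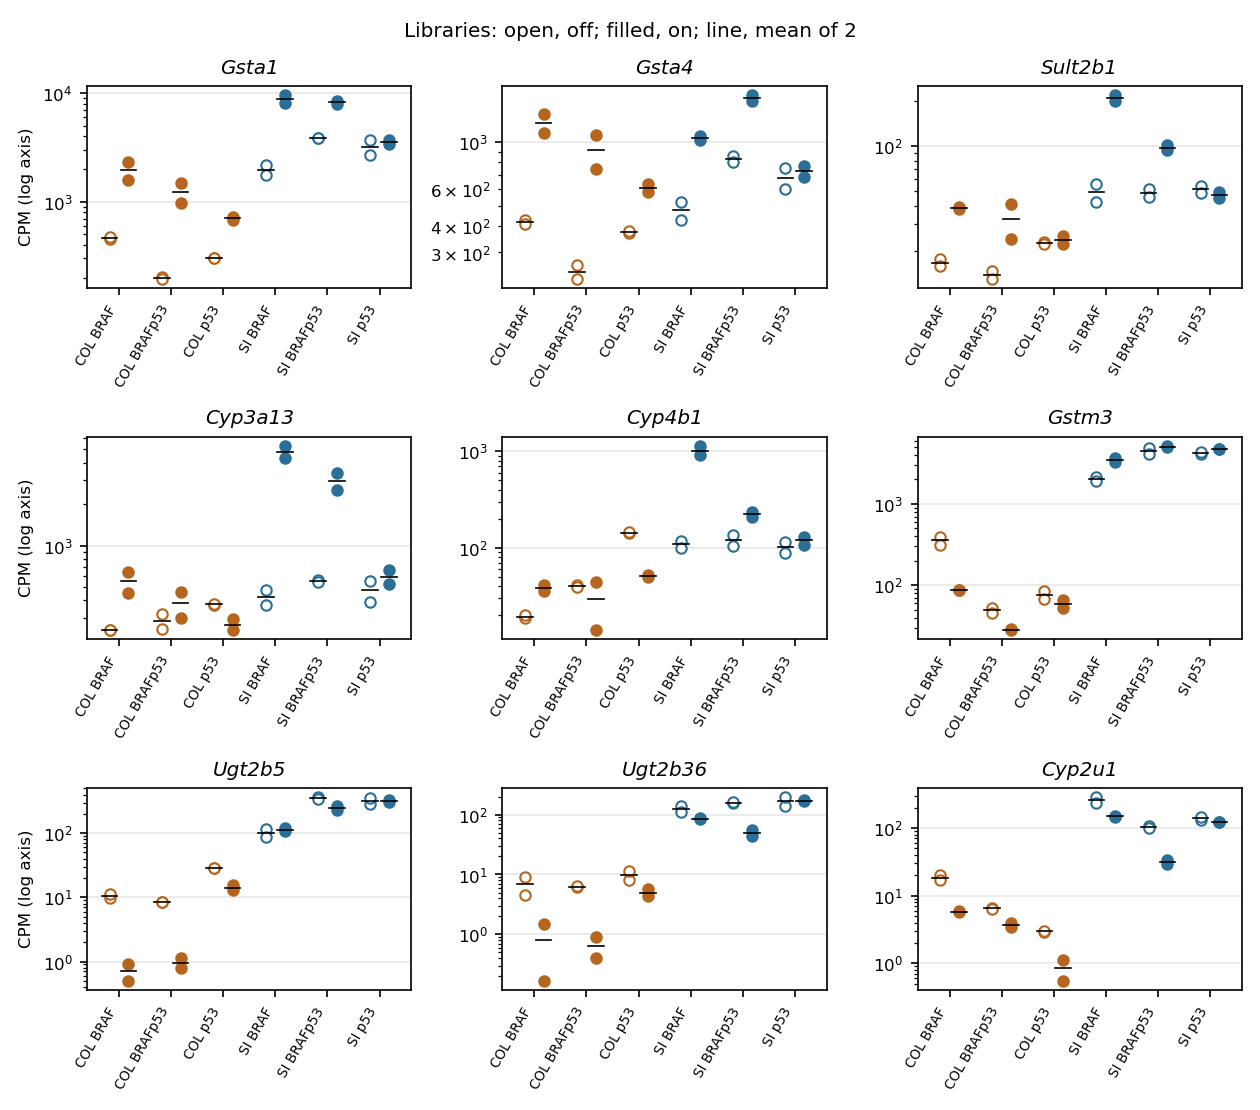
CPM of 9 members in all 24 libraries on log axes; open points are off and filled points on libraries, brown for COL and blue for SI, and each line is the mean of 2. Gsta1, Gsta4 and Sult2b1 have the filled points above the open ones in all BRAF-bearing arms, Cyp3a13 and Cyp4b1 have their widest gap in SI BRAF, and Ugt2b5 is lower on than off in COL BRAF while its SI BRAF points overlap.

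Another 3 of the 82 genes fell in all BRAF-bearing arms (3.66%, against 0.816% of all genes). Cyp2u1, a long-chain fatty acid hydroxylase, went from 19.9 and 17.1 to 5.86 and 5.74 CPM in COL BRAF (-1.67 ± 0.26, adjusted p = 0.00114) and from 6.63 and 6.33 to 3.9 and 3.4 CPM in COL BRAFp53 (-0.83 ± 0.26, adjusted p = 0.0499). In SI BRAF it was at 285 and 232 CPM off and 151 and 146 CPM on (-0.84 ± 0.12, adjusted p = 0.000117, and -0.86 without the library with Xist), and in SI BRAFp53 at 106 and 100.3 CPM off and 33.2 and 29.1 CPM on (-1.76 ± 0.12, adjusted p = 1.49e-06). Off and on libraries were separate in each arm. Ugt2b36, of the family that glucuronidates steroids, was at 4.47 and 9.19 CPM off and 0.166 and 1.47 CPM on in COL BRAF (-3.11 ± 0.69, adjusted p = 0.00797) and at 6.1 and 6.45 CPM off and 0.895 and 0.401 CPM on in COL BRAFp53 (-3.25 ± 0.69, adjusted p = 0.00739). The SI values were 138 and 112 CPM off and 85.2 and 86.8 CPM on for BRAF (-0.58 ± 0.16, adjusted p = 0.0132) and 157 and 160.3 CPM off and 43.5 and 56.1 CPM on for BRAFp53 (-1.71 ± 0.16, adjusted p = 1.8e-05). Its on libraries stood below the off libraries throughout. Cyp2c68, which shares 43.3% of its windows with Cyp2c40 and other genes, was lower on than off in COL BRAF (-1.98 ± 0.41, adjusted p = 0.00556), in COL BRAFp53 (-1.73 ± 0.38, adjusted p = 0.00938), in SI BRAF (-0.61 ± 0.14, adjusted p = 0.00575) and in SI BRAFp53 (-1.19 ± 0.14, adjusted p = 0.000135). Several of these calls needed every library. The log2 fold change of Ugt2b36 was -2.48, adjusted p = 0.0512 without the COL BRAF off library 2, -2.79, adjusted p = 0.0538 without the COL BRAFp53 on library 2 and -0.45, adjusted p = 0.113 without the SI BRAF off library 1. That of Cyp2c68 was -1.51, adjusted p = 0.0863 without the COL BRAFp53 on library 1 and -0.47, adjusted p = 0.0639 without the SI BRAF off library 1. Without the library with Xist, SI BRAF gave -0.56, adjusted p = 0.0477 for Ugt2b36 and -0.81, adjusted p = 0.00105 for Cyp2c68.

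The 11 Cyp2, 3 Cyp3 and 5 Cyp4 genes that rose in SI BRAF included abundant P450s. Cyp3a13, the Cyp3a form expressed along the intestine (ENSMUSG00000029727, chr5:137892932-137921619), rose from 476 and 368 to 4346 and 5253 CPM (3.46 ± 0.20, adjusted p = 8.99e-08, and 3.60 without the library with Xist). In COL BRAF it went from 245 and 244 to 643 and 456 CPM (1.16 ± 0.21, adjusted p = 0.00233), and COL BRAFp53 did not pass the test (0.43 ± 0.21, adjusted p = 0.183). In SI BRAFp53 it rose from 561 and 543 to 2546 and 3366 CPM (2.38 ± 0.19, adjusted p = 4.58e-06). The highest off library of Cyp3a13 lay below the lowest on library in all 3 arms that passed. Cyp4b1, which oxidises fatty acids and some protoxins, went from 117 and 98.9 to 902 and 1126 CPM in SI BRAF (3.18 ± 0.17, adjusted p = 8.21e-08, 3.34 without that library) and from 134 and 105 to 210.1 and 237 CPM in SI BRAFp53 (0.87 ± 0.16, adjusted p = 0.00342). The arachidonic acid epoxygenase Cyp2j5 was at 2.36 and 2.34 CPM off and 35.5 and 45 CPM on in SI BRAF (4.05 ± 0.55, adjusted p = 0.000112), and at 0.547 and 0.542 CPM off and 3.35 and 3.72 CPM on in SI BRAFp53 (2.66 ± 0.61, adjusted p = 0.0121). Its relative Cyp2j6, far more abundant, rose from 1298 and 923 to 3435 and 4216 CPM in SI BRAF (1.74 ± 0.16, adjusted p = 3.95e-06).

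More P450s rose in the same arm. Cyp4f14, an omega-hydroxylase of leukotriene B4 and fatty acids, went from 709.8 and 586 to 2274 and 3178 CPM (2.03 ± 0.16, adjusted p = 1.19e-06). Cyp2c29 rose from 319.7 and 397 to 1151 and 2187 CPM (2.17 ± 0.44, adjusted p = 0.00217) and Cyp3a11 from 172 and 151 to 369 and 486 CPM (1.36 ± 0.25, adjusted p = 0.000953). All on libraries of these genes stood above both off libraries. Smaller rises were those of Cyp2c55 (0.96 ± 0.19, adjusted p = 0.00164), Cyp2c65 (0.63 ± 0.14, adjusted p = 0.0042) and Cyp2s1 (0.64 ± 0.13, adjusted p = 0.00276). Without the library with Xist the log2 fold changes were 2.26 for Cyp4f14, 2.57 for Cyp2c29, 1.56 for Cyp3a11, 1.18 for Cyp2c55, 0.72 for Cyp2c65, 0.80 for Cyp2s1, 4.22 for Cyp2j5 and 1.89 for Cyp2j6. The CAR target Cyp2b10 was at 999.8 and 1002 CPM off and 1117 and 1529 CPM on and did not pass the test (0.35 ± 0.20, adjusted p = 0.211). In SI BRAFp53, the off and on values of Cyp4f14 overlapped (-0.11 ± 0.15, adjusted p = 0.734), and Cyp3a11 gave 0.13 ± 0.24, adjusted p = 0.818. Cyp2j5 in SI BRAFp53 lost its call without the SI BRAFp53 off library 1 (2.65, adjusted p = 0.0786).

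The promoter bases of a few of these genes are shown for reference, as 120 bases before the start in GRCm38.p6 from RefSeq, 5′ to 3′ along the gene, with capitals marking the AHR core GCGTG. They cover Cyp3a13, an abundant P450 that rose in SI BRAF, Gsta1 and its near copy Gsta2, Ugt2b36, which fell in all BRAF-bearing arms, and the textbook AHR target Cyp1a1:
Cyp3a13: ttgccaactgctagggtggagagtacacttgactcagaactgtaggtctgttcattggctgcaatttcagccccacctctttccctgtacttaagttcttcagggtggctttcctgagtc
Gsta1: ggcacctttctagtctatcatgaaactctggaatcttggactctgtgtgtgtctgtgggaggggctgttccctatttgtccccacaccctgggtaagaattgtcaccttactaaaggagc
Gsta2: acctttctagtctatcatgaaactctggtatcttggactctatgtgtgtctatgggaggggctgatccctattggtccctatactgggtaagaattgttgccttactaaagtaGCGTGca
Ugt2b36: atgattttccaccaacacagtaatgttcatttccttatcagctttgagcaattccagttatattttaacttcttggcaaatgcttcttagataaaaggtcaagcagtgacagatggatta
Cyp1a1: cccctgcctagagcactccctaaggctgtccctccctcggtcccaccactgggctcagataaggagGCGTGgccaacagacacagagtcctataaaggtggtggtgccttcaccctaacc
They lie at chr5:137921620-137921739 (minus strand), chr9:78230549-78230668 (plus strand), chr9:78347146-78347265 (minus strand), chr5:87092556-87092675 (minus strand) and chr9:57697493-57697612 (plus strand), in the order shown. Of the 143 genes, 121 matched the RefSeq table, with 139 promoter windows of 250 bases before to 50 after the start. On either strand, GCGTG was found in 28 of them (20.14%), against 32.39% of all 32851 windows of the same length. The NRF2 core TGACNNNGC was found in 9 (6.475%), against 12.39% of all windows. The match in Gsta1 spans the start itself and lies partly outside the bases shown. A match describes letters only.

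The genes that fell in COL BRAF included the Ugt2 enzymes of steroid conjugation and several classes of glutathione S-transferase. Ugt2b5, which conjugates steroids (ENSMUSG00000054630, chr5:87124960-87140318), went from 9.85 and 11.5 to 0.919 and 0.496 CPM in COL BRAF (-3.89 ± 0.27, adjusted p = 7.26e-06) and from 8.33 and 8.4 to 1.12 and 0.787 CPM in COL BRAFp53 (-3.12 ± 0.26, adjusted p = 3.61e-05). The SI BRAF libraries were at 116 and 87.4 CPM off and 120.5 and 107 CPM on and overlapped (0.12 ± 0.14, adjusted p = 0.564). Off and on libraries of Ugt2b5 were far apart in the COL arms. Ugt2b35 fell from 14.1 and 16.6 to 4.38 and 6.06 CPM in COL BRAF (-1.56 ± 0.28, adjusted p = 0.00217) and also in COL BRAFp53 (-1.44 ± 0.27, adjusted p = 0.00388). Ugt2b34 fell in COL BRAF (-0.60 ± 0.11, adjusted p = 0.00269) and COL BRAFp53 (-0.65 ± 0.11, adjusted p = 0.00208). Of the glutathione S-transferases, the theta-class Gstt1 fell from 33.8 and 28.9 to 6.3 and 8.06 CPM in COL BRAF (-2.13 ± 0.21, adjusted p = 5.74e-05) and from 10.01 and 7.07 to 3.24 and 2.7 CPM in COL BRAFp53 (-1.52 ± 0.21, adjusted p = 0.000652). Gstm2 fell in both arms (-1.04 ± 0.14, adjusted p = 0.000435 in BRAF and -0.71 ± 0.14, adjusted p = 0.00512 in BRAFp53), so the falls were not limited to the theta class. Sult1c2, a sulfotransferase of phenolic compounds, went from 42.5 and 44.7 to 7.76 and 6.5 CPM in COL BRAF (-2.61 ± 0.21, adjusted p = 1.83e-05) and also fell in SI BRAF, from 32.6 and 25 to 12.1 and 6.79 CPM (-1.64 ± 0.32, adjusted p = 0.0016, and -2.12 without the library with Xist). Cyp3a25 fell from 26.5 and 20.7 to 2.09 and 2.63 CPM in COL BRAF (-3.33 ± 0.44, adjusted p = 0.000407) and in COL BRAFp53 (-2.51 ± 0.45, adjusted p = 0.00282). Genes lower in both COL BRAF-bearing arms numbered 14 of 91, or 15.4%, against 3.58% of all genes.

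The P450s that rose in COL BRAF were Cyp2c29, Cyp2c55, Cyp2d9 and Cyp3a13. Cyp2c55 was at 742 and 760.4 CPM off and 1510.5 and 1149 CPM on (0.82 ± 0.22, adjusted p = 0.0216), while in COL BRAFp53 its off values of 508 and 522 CPM lay between the on values of 736 and 405 CPM (0.15 ± 0.22, adjusted p = 0.684). Cyp2c29 stood at 1.05 and 1.28 CPM off and 8.15 and 13.9 CPM on (3.24 ± 0.85, adjusted p = 0.019), and its call was lost without the on library 2 (2.79, adjusted p = 0.118). Cyp2d9 rose (0.90 ± 0.26, adjusted p = 0.0306), and did not pass in SI BRAF (0.22 ± 0.43, adjusted p = 0.749) or SI BRAFp53 (-0.46 ± 0.41, adjusted p = 0.558).

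The same mu-class transferases moved in opposite directions in the BRAF cultures of COL and SI. Lower in COL BRAF and higher in SI BRAF were 10 of 82 members (12.2%, against 0.822% of all genes), namely Gstm1, Gstm3, Gstm4, Gstm6, Gstm7, Ugt1a7c, Ugt2b34, Cyp3a25, Cyp4f16 and Cyp4v3, and the reverse was found for 0 members and 0.313% of all genes. Of these 10, Gstm3, Gstm7, Ugt2b34, Cyp3a25 and Cyp4v3 were also called lower in COL BRAFp53, and the others were not. Cyp4f16 alone was also called higher in SI BRAFp53. Gstm3 went from 397 and 314 to 86.9 and 86.8 CPM in COL BRAF (-2.04 ± 0.15, adjusted p = 1.1e-05) and from 2135 and 1919.5 to 3242 and 3625 CPM in SI BRAF (0.71 ± 0.092, adjusted p = 6.85e-05, 0.80 without the library with Xist). Gstm1 was at 1264 and 939 CPM off and 541 and 591 CPM on in COL BRAF (-0.96 ± 0.13, adjusted p = 0.000443), against 4223 and 3836 CPM off and 6197 and 7119.5 CPM on in SI BRAF (0.68 ± 0.092, adjusted p = 0.000102). Neither gene had overlapping off and on libraries. Gstm4, with no window shared with another gene, fell in COL BRAF (-1.13 ± 0.19, adjusted p = 0.00152) and rose in SI BRAF (0.85 ± 0.13, adjusted p = 0.000311). Ugt1a7c did the same (-0.69 ± 0.14, adjusted p = 0.00565 in COL and 0.78 ± 0.13, adjusted p = 0.00057 in SI). Ugt2b34 rose in SI BRAF (0.78 ± 0.14, adjusted p = 0.00081), and Cyp3a25 rose there from 119 and 104 to 209 and 246 CPM (0.98 ± 0.15, adjusted p = 0.000316). Cyp4v3, a fatty acid omega-hydroxylase, fell in COL BRAF (-1.14 ± 0.32, adjusted p = 0.0276) and rose in SI BRAF (0.74 ± 0.14, adjusted p = 0.00115). Without the library with Xist the SI BRAF values were 0.78 for Gstm1, 0.88 for Gstm4, 0.53 for Gstm7, 0.78 for Ugt1a7c, 0.92 for Ugt2b34, 1.104 for Cyp3a25, 2.06 for Cyp4f16 and 0.82 for Cyp4v3. Gstm6, at 0.57 ± 0.15, adjusted p = 0.00943 with all libraries, lost its SI BRAF call without that library (0.43, adjusted p = 0.0648). The COL BRAF culture, in which these falls were measured, held more Gstm3 when off than the other COL cultures, at 397 and 314 CPM against 53 and 46.2 CPM in BRAFp53 and 84.1 and 68.4 CPM in p53.

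Gstp1, Gstp2 and Gstp3 had a called rise in COL BRAFp53, and Ugt2b38, Sult6b2 and Cyp1a1 in SI BRAFp53. With all libraries, only Gstp1 and Gstp3 of these 6 were called different from the BRAF arm of the same tissue in the direct test. The pi-class transferase Gstp1 rose in COL BRAFp53 from 289 and 249 to 515 and 496 CPM (0.91 ± 0.10, adjusted p = 0.000182), while COL BRAF was at 450.3 and 393 CPM off and 429 and 453 CPM on with overlapping values (0.06 ± 0.10, adjusted p = 0.74). Gstp2, its near copy, rose in COL BRAFp53 as well (1.29 ± 0.23, adjusted p = 0.00238), against -0.04 ± 0.22, adjusted p = 0.928 in COL BRAF. Gstp3, which shares no window with another gene, went from 9.85 and 9.79 to 16 and 14.9 CPM there (0.66 ± 0.15, adjusted p = 0.0119) and fell in COL BRAF (-0.66 ± 0.15, adjusted p = 0.00985). As BRAFp53 minus BRAF in COL, the difference passed for Gstp1 (0.85 ± 0.14, adjusted p = 0.0404) and Gstp3 (1.31 ± 0.22, adjusted p = 0.0404), both of which lost it without the COL BRAF off library 1, and did not pass for Gstp2 (1.34 ± 0.31, adjusted p = 0.0628). In SI BRAFp53, Ugt2b38 went from 0.0977 and 0.271 to 13.5 and 17.9 CPM (6.35 ± 0.50, adjusted p = 4.5e-06). Its near copy Ugt2b5 fell in the same arm from 363 and 344 to 229.7 and 262 CPM (-0.56 ± 0.14, adjusted p = 0.0217), so the copies moved in opposite directions. In SI BRAF, Ugt2b38 was also called higher (2.86 ± 0.92, adjusted p = 0.0302), from 2 counts off and 13 on, a ratio of 8.26 with a counting interval of 1.87 to 75.4, and the call was lost without the SI BRAF off library 2 (1.75, adjusted p = 0.21). Its log2 fold change without the library with Xist was 3.17, adjusted p = 0.0358. Sult6b2 was at 94 and 98.8 CPM off and 259 and 319 CPM on in SI BRAFp53 (1.55 ± 0.29, adjusted p = 0.00336). In SI BRAF it was at 9.14 and 7.96 CPM off and 21.5 and 8.31 CPM on (0.78 ± 0.31, adjusted p = 0.0715), where the library with Xist was the highest, and -0.08, adjusted p = 0.821 without that library. The SI cultures with Xist held more of it, at 94 and 98.8 CPM off in BRAFp53 and 77.3 and 99 CPM off in p53. Cyp1a1, the AHR target shown above, had 9 counts in the off and 306 in the on libraries of SI BRAFp53, at 0 and 0.174 CPM off and 1.65 and 3.84 CPM on, a ratio of 32.5 (16.9 to 71.8, counting error only) with an adjusted p of 0.0227. All 9 off counts lay in 1 library. It passed in no other arm, and SI BRAF was at 0.463 and 0.716 CPM off and 0.356 and 1.02 CPM on and COL BRAF at 0.0561 and 1.22 CPM off and 7.01 and 1.18 CPM on (2.69 ± 1.11, adjusted p = 0.113). As BRAFp53 minus BRAF in SI, none of these differences passed with all libraries, at 3.49 ± 1.54, adjusted p = 0.2 for Ugt2b38, 0.77 ± 0.42, adjusted p = 0.299 for Sult6b2 and 4.75 ± 1.62, adjusted p = 0.095 for Cyp1a1. Without the library with Xist they were 3.20, adjusted p = 0.229 for Ugt2b38, 1.64, adjusted p = 0.00103 for Sult6b2, which then passed, and 4.17, adjusted p = 0.152 for Cyp1a1.

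Among the 12 members that fell in SI BRAFp53 were glucuronosyltransferases and P450s. Ugt1a1, which conjugates bilirubin and shares 80.2% of its windows with other genes, went from 31.4 and 28.9 to 14.1 and 15.1 CPM (-1.08 ± 0.18, adjusted p = 0.00193), having risen in SI BRAF from 30.3 and 28 to 38.4 and 51.4 CPM (0.58 ± 0.18, adjusted p = 0.0278). Ugt2a3 fell from 163 and 172 to 65.1 and 65.6 CPM (-1.40 ± 0.12, adjusted p = 6.34e-06), with 132 and 107 CPM off and 117 and 109 CPM on in SI BRAF (-0.13 ± 0.11, adjusted p = 0.438). Ugt1a9 (-1.53 ± 0.23, adjusted p = 0.000703) and the arachidonate epoxygenase Cyp2c23 (-1.73 ± 0.28, adjusted p = 0.00128) fell too, and Cyp4v3 went from 145 and 119 to 45.4 and 42.7 CPM (-1.62 ± 0.14, adjusted p = 8.38e-06). Higher in SI BRAF but lower in SI BRAFp53 were 4 of 92 members, Cyp2d10, Cyp2d22, Cyp4v3 and Ugt1a1 (4.35%, against 0.403% of all genes). Cyp2d22 rose from 21.8 and 17.2 to 54.3 and 58.6 CPM in SI BRAF (1.49 ± 0.19, adjusted p = 7.82e-05) and fell from 54.5 and 35.5 to 27.2 and 23.6 CPM in SI BRAFp53 (-0.86 ± 0.19, adjusted p = 0.0103). Without the library with Xist the SI BRAF values of Cyp2d22 and Ugt1a1 were 1.55 and 0.78, adjusted p = 0.0085.

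Induction of p53 alone gave few calls in the main fits. In COL p53, Gsta1 rose from 302 and 304 to 728 and 685 CPM (1.20 ± 0.19, adjusted p = 0.0456) and Cyp2u1 fell from 2.95 and 3 to 1.14 and 0.548 CPM (-1.84 ± 0.29, adjusted p = 0.0456), each with separate off and on libraries. An unadjusted p under 0.05 was found for 36 of 91 members (39.6%), against 8.34% of all genes. DESeq2 called 14 of 71 members (3 higher, 11 lower), or 19.7%, against 2.28% of all genes, and limma-voom 7 of 91 (1 higher, 6 lower), or 7.69%, against 0.195%. The median log2 fold change of the members in COL p53 was -0.38, with 0.00 over all genes, and 3 of 22 enterocyte and colonocyte markers were lower. Of the genes that missed the threshold, Cyp4b1 was at 142 and 145 CPM off and 50.02 and 52.5 CPM on (-1.50 ± 0.36, adjusted p = 0.156). Cyp2d9 was at 94.6 and 84.1 CPM off and 35.7 and 36.1 CPM on (-1.34 ± 0.26, adjusted p = 0.106) and Cyp2s1 at 143 and 87.4 CPM off and 56.3 and 37.1 CPM on (-1.32 ± 0.27, adjusted p = 0.106). Both calls were lost without the COL p53 off library 1, with a log2 fold change of 1.19, adjusted p = 0.24 for Gsta1 and -1.86, adjusted p = 0.181 for Cyp2u1, and 1 call was left without the COL p53 on library 1 or the off library 2. In SI p53, edgeR called 0 of 92 members, 6 had an unadjusted p under 0.05 (6.52%, against 5.18% of all genes), and DESeq2 and limma-voom called 0. Without the filter on low counts, edgeR called 26 of 122 members in COL p53 (21.3%, against 1.87% of all genes). In SI p53 it then called 2 of 122 (1.64%, against 0.576%).

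Whether the BRAF response differed in the presence of the mutant p53 allele was tested directly as a difference of log2 fold changes within a tissue. In SI, 31 of 92 members responded lower in BRAFp53 than in BRAF and none higher, where 6.28% of all genes were lower and 1.93% higher. As BRAFp53 minus BRAF, members that differed included the P450s Cyp4v3 (-2.36 ± 0.20, adjusted p = 2.94e-05), Cyp2d22 (-2.35 ± 0.27, adjusted p = 0.00026), Cyp4b1 (-2.32 ± 0.23, adjusted p = 8.91e-05) and Cyp4f14 (-2.14 ± 0.22, adjusted p = 0.000113). Without the library with Xist they were -2.42, -2.40, -2.46 and -2.35. The glucuronosyltransferases Ugt1a9 (-1.73 ± 0.33, adjusted p = 0.00661) and Ugt2a3 (-1.27 ± 0.16, adjusted p = 0.000501) also differed. Gsta1, which rose in both arms, still differed (-1.07 ± 0.19, adjusted p = 0.00499), while the difference of Gsta4 did not pass the test (-0.18 ± 0.17, adjusted p = 0.595). On levels of Gsta1 overlapped between these arms, while its off levels, given above, were lower in SI BRAF. All members summed to 17511 to 20371 CPM off and 41952 to 50046 CPM on in SI BRAF. In SI BRAFp53 they summed to 29425 to 32278 CPM off and 39571 to 43214 CPM on. The part of the off levels in these differences was not tested. In the direct test of the difference, 18 of 22 enterocyte and colonocyte markers were lower and none higher. Fewer members were called without the SI BRAF off library 2 or without the SI BRAFp53 off library 1, each of which left 1 library in its group. In COL, 6 members responded higher in BRAFp53 and none lower, where 0.532% of all genes were higher and 0.374% lower. They included Sult1c2 (1.72 ± 0.29, adjusted p = 0.0404), Gstp3 (1.31 ± 0.22, adjusted p = 0.0404), Gstm4 (1.28 ± 0.26, adjusted p = 0.0492), Gstm3 (1.23 ± 0.21, adjusted p = 0.0404) and Gstp1 (0.85 ± 0.14, adjusted p = 0.0404), and Cyp2c70, which went from 0 counts off to 25 counts on in COL BRAFp53 (at least 8.2-fold higher, against a floor of 3 counts over the group). The COL count was 0 without the COL BRAF on library 1, the on library 2, the off library 1, the COL BRAFp53 on library 2 or the off library 2, and 10 (5 higher, 5 lower) without the COL BRAFp53 on library 1. By other measures the COL count was 13 of 67 members with DESeq2 (10.2% of all genes) and 5 of 91 with limma-voom (1.21%). With edgeR and no filter on low counts it was 22 of 122 (4.31%). Genotype and donor mouse were the same factor here and cannot be told apart.

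**Figure D5:**
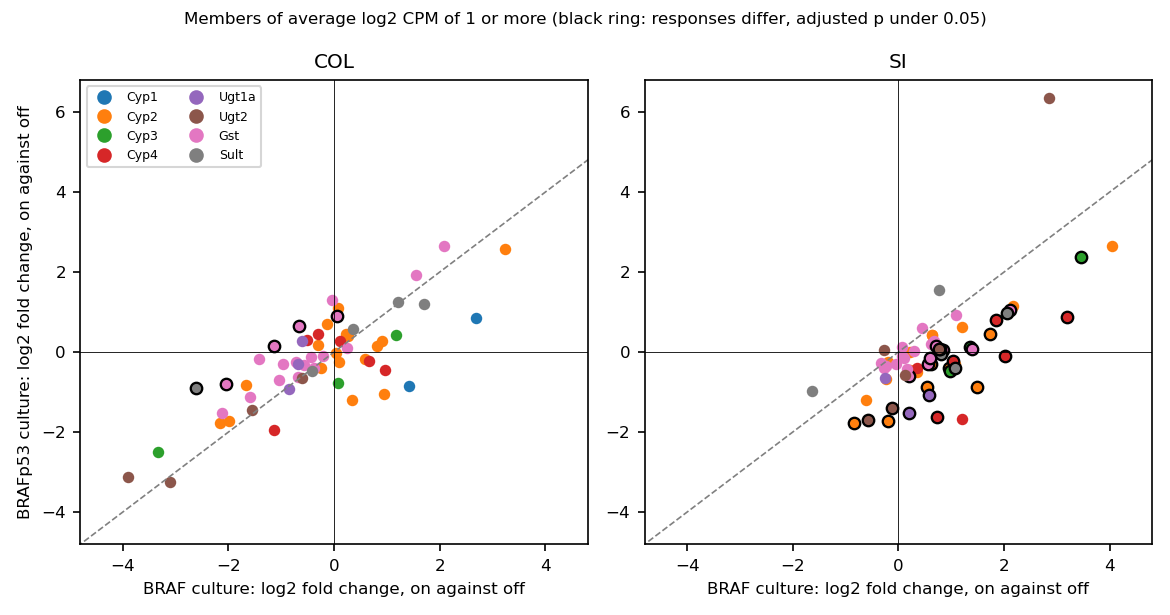
Log2 fold change, on against off, in the BRAF culture (x axis) and the BRAFp53 culture (y axis) of members with an average log2 CPM of 1 or more, COL on the left and SI on the right; colours give the family, the dashed line is equality, and a black ring marks an adjusted p under 0.05 for the difference. In SI the ringed points lie below the dashed line, and in COL above it.

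Differences between COL and SI in the response were tested across all 24 libraries, where tissue, 4-HT dose, day of RNA isolation and medium differ together and cannot be told apart. For BRAF, 32 of 102 members responded lower in COL than in SI and none higher, where 7.4% of all genes were lower and 3.31% higher, and 15 of 22 enterocyte and colonocyte markers were lower and 1 higher. As COL minus SI, the P450s Cyp3a25 (-4.36 ± 0.45, adjusted p = 5.66e-06), Cyp2j5 (-4.01 ± 0.83, adjusted p = 0.00381) and Cyp3a13 (-2.34 ± 0.31, adjusted p = 9.19e-05) and the transferases Ugt2b5 (-4.04 ± 0.29, adjusted p = 6e-08) and Gstm3 (-2.79 ± 0.19, adjusted p = 5.85e-08) were among them. Without the SI library with Xist these 5 differences were -4.47, -4.16, -2.47, -3.95 and -2.87. The difference of Gsta1 did not pass the test (-0.09 ± 0.26, adjusted p = 0.927). Ugt2a3 passed (-2.89 ± 0.89, adjusted p = 0.0458), from COL values of at most 1.56 CPM, and its call was lost without the COL BRAF off library 1 (-1.93, adjusted p = 0.312) and without the SI library with Xist (-2.84, adjusted p = 0.0705). Fewer members were called without the SI library with Xist or without the SI BRAF off library 2, each of which left 1 library in its group. For BRAFp53, 8 members responded lower in COL (2.13% of all genes) and 7 higher (1.39%). Among the lower were Ugt2b5 (-2.59 ± 0.27, adjusted p = 3.42e-05), Cyp3a25 (-2.06 ± 0.47, adjusted p = 0.0195), Cyp3a13 (-2.00 ± 0.31, adjusted p = 0.00135), Ugt2b35 (-1.52 ± 0.32, adjusted p = 0.0123) and Gstt1 (-1.14 ± 0.28, adjusted p = 0.0298).

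Among the members higher in COL for BRAFp53 were Gsta1 (1.55 ± 0.26, adjusted p = 0.00289), Gstp1 (1.02 ± 0.16, adjusted p = 0.00124), Gstp3 (1.22 ± 0.22, adjusted p = 0.00427), Ugt1a1 (1.31 ± 0.33, adjusted p = 0.0331) and Cyp2c70. The fitted difference of Cyp2c70 (6.63 ± 1.46, adjusted p = 0.0167) rests on 0 counts in the COL off libraries and is no measure of size, since its fold in COL is known only as at least 8.2. The count of 15 became 9 without the COL BRAFp53 off library 2, 8 without the SI BRAFp53 on library 2 and 8 without the SI BRAFp53 off library 1. Lost with a single library were Cyp2c70 (6.62, adjusted p = 0.0897) and Cyp3a25 (-1.25, adjusted p = 0.136) without the COL BRAFp53 off library 2, Gstt1 (-0.79, adjusted p = 0.142) without its off library 1, Ugt1a1 (0.91, adjusted p = 0.196) without its on library 1, and Ugt2b35 (-1.39, adjusted p = 0.0667) without the SI BRAFp53 on library 2. For p53, Cyp2u1 (-1.63 ± 0.26, adjusted p = 0.0148) and Gstm2 (-0.88 ± 0.17, adjusted p = 0.0404) responded lower in COL, where 0.107% of all genes did. That count was 0 without the COL p53 off library 1, the SI p53 on library 1 or the SI p53 off library 1, and 1 without the SI p53 on library 2 or off library 2.

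The remaining members fixed by name changed less or in fewer arms. Gsto1, which reduces dehydroascorbate, was at 310.2 and 311 CPM off and 389.7 and 351 CPM on in COL BRAF (0.25 ± 0.09, adjusted p = 0.0708) and rose in SI BRAF (0.29 ± 0.10, adjusted p = 0.0394), a call lost without the library with Xist (0.24, adjusted p = 0.154). Gsta3 fell in COL BRAF from 156 and 160.3 to 105 and 107 CPM (-0.58 ± 0.12, adjusted p = 0.00482) and gave -0.23 ± 0.11, adjusted p = 0.134 in SI BRAF. Gstz1, the maleylacetoacetate isomerase of tyrosine breakdown, fell in COL BRAF (-0.72 ± 0.11, adjusted p = 0.000947). The mitochondrial and peroxisomal Gstk1 rose in SI BRAF from 14 and 9.48 to 31.7 and 31.6 CPM (1.39 ± 0.19, adjusted p = 0.000125), a response that differed from COL (-1.65 ± 0.25, adjusted p = 0.000274). Of the sulfotransferases, Sult1b1 (1.06 ± 0.19, adjusted p = 0.000861) and Sult1d1 (0.80 ± 0.15, adjusted p = 0.00135), which sulfates catecholamines, rose in SI BRAF. Neither passed in COL BRAF (-0.41 ± 0.20, adjusted p = 0.172 for Sult1b1 and 0.36 ± 0.24, adjusted p = 0.335 for Sult1d1). In SI BRAF without the library with Xist the values were 1.39 for Gstk1, 1.09 for Sult1b1 and 0.84 for Sult1d1. Sult1a1 passed in no arm and was highest in COL p53, at 6.02 and 4.52 CPM off and 2.71 and 1.69 CPM on. Ugt1a6a fell in COL BRAFp53 (-0.92 ± 0.28, adjusted p = 0.0422) and gave -0.85 ± 0.28, adjusted p = 0.0504 in COL BRAF. Cyp2e1, which oxidises ethanol, was at most 2.67 CPM in any library and passed in no arm, with 1.23 and 2.67 CPM off and 0.527 and 0.309 CPM on in COL BRAFp53 (-2.21 ± 0.91, adjusted p = 0.118). Cyp1b1 was at 1.14 and 0.561 CPM off and 2.37 and 2.23 CPM on in COL BRAF (1.43 ± 0.47, adjusted p = 0.0538). Cyp2b10 passed in no arm.

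The other genes of the pathway were read from lists of receptors, cofactor supply, other enzymes, efflux pumps and NRF2 targets. Of 10 receptors and partners, 1 rose in COL BRAF, 1 in COL BRAFp53 and 4 of 9 tested in SI BRAF, while in SI BRAFp53 1 rose and 1 fell. Nfe2l2, which encodes NRF2, rose in SI BRAF (0.64 ± 0.10, adjusted p = 0.000443) and COL BRAFp53 (0.29 ± 0.089, adjusted p = 0.0415), and Nr1i3, which encodes CAR, rose in SI BRAF (0.72 ± 0.16, adjusted p = 0.00436) and fell in SI BRAFp53 (-0.72 ± 0.16, adjusted p = 0.0106). Ahr, the gene of the AHR receptor, passed in no arm, SI BRAFp53 included (-0.13 ± 0.17, adjusted p = 0.71). Of 4 other NRF2 targets, 3 rose in COL BRAF, 2 in COL BRAFp53, 4 in SI BRAF and 3 in SI BRAFp53. Hmox1, the haem oxygenase, rose in COL BRAF (1.62 ± 0.19, adjusted p = 0.000193) and SI BRAF (2.10 ± 0.34, adjusted p = 0.000439). The cystine carrier Slc7a11 also rose in COL BRAF (1.58 ± 0.17, adjusted p = 0.000112) and SI BRAF (3.70 ± 0.43, adjusted p = 3.2e-05). Nqo1, a further NRF2 target placed among the other enzymes, passed in neither COL BRAF (-0.21 ± 0.10, adjusted p = 0.159) nor SI BRAF (0.20 ± 0.10, adjusted p = 0.165).

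In SI BRAF 8 of 13 genes of electron and cofactor supply rose and 1 fell, and in COL BRAF 2 rose and 3 fell. Por, the reductase that feeds electrons to every microsomal P450, rose in SI BRAF (1.25 ± 0.13, adjusted p = 1.64e-05) and in COL BRAFp53 (1.06 ± 0.17, adjusted p = 0.00157). Papss2, which makes the sulfate donor of the sulfotransferases, rose in SI BRAF (2.53 ± 0.15, adjusted p = 1.12e-07). Of the efflux pumps, 6 of 7 rose in SI BRAF, 4 in COL BRAF and 3 in each BRAFp53 arm, and none fell. Abcb1a, encoding P-glycoprotein, rose in COL BRAF (1.40 ± 0.14, adjusted p = 8.45e-05) and in COL BRAFp53 (0.79 ± 0.14, adjusted p = 0.00306), and also in SI BRAF (1.66 ± 0.19, adjusted p = 2.31e-05) and SI BRAFp53 (0.96 ± 0.18, adjusted p = 0.0041). Among 25 other enzymes, 9 of 23 tested fell and 3 rose in COL BRAF, and 4 of 22 fell and 10 rose in SI BRAF. In COL BRAFp53 6 fell and 4 rose, and in SI BRAFp53 8 fell and 3 rose. Of the carboxylesterases, Ces1d fell in COL BRAF (-3.51 ± 0.22, adjusted p = 7.26e-06) and SI BRAF (-1.15 ± 0.21, adjusted p = 0.000893), and Ces2c rose in SI BRAF (2.88 ± 0.21, adjusted p = 5.89e-07). The microsomal transferase Mgst1 fell in COL BRAF (-1.65 ± 0.15, adjusted p = 3.52e-05) and did not pass in SI BRAF (0.28 ± 0.12, adjusted p = 0.0866). In COL p53, 2 other enzymes fell, and Ces1d was among them (-1.74 ± 0.20, adjusted p = 0.0089), as was Ces2e (-1.16 ± 0.16, adjusted p = 0.0269). No gene of these lists passed in SI p53.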

How the data were processed

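RNA-Seq libraries were prepared from 24 organoid samples, 2 in each of 12 groups of tissue, genotype and treatment. Paired-end reads had been trimmed with Trimmomatic 0.36 and aligned with STAR 2.5.2b to mm10 (the submitters' processing notes also list mm9), and the authors deposited 1 table of raw counts per gene for each tissue. The annotation release and strand setting were not given in the sources used here. Without a strand setting, reads of a gene and an overlapping antisense gene cannot be told apart. All per-sample columns were mapped to a sample by name, with 0 left over.

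Of 45706 gene identifiers, 45143 matched GENCODE M21, which gave symbols, biotypes, coordinates and exon lengths. A further 23 genes with a symbol of the rule were not protein-coding and were left out. Coding and promoter sequences came from GRCm38 transcripts and RefSeq. A gene's shared windows are the percent of the distinct 50-base windows of its annotated transcripts found in a transcript of any other gene, on either strand.

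Genes were filtered by expression (filterByExpr), scaled by TMM and tested with edgeR 4.0.16 in R 4.3.3 (quasi-likelihood, Benjamini-Hochberg over all genes, called at an adjusted p of 0.05). The tissues were fitted separately with 12 libraries each, the tissue differences in a joint fit of 24 libraries, and the off tissues after summing the 2 libraries of a culture. CPM used joint TMM scaling, and values per library are given as replicate 1 and then replicate 2. Intervals for ratios are exact 95% intervals and, like the floor of 3 counts, cover counting error only. A floor of 3 counts in a library was 0.0368 to 0.0572 CPM in COL and 0.0481 to 0.0878 CPM in SI. DESeq2 1.42.0, limma-voom (limma 3.58.1), RLE size factors, other filters, a fold threshold, a replicate block and leaving out libraries were alternatives. The edgeR fit was also run on simulated counts with planted changes, as a check of the code. The spread of those counts was set in advance, so no error rate for these data follows from it.

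Members, gene lists and tests were chosen with earlier results of these data known. Named genes were 38 fixed members, those most abundant in either tissue, and in each comparison up to 5 members per direction (8 for the off tissues) with the largest change among those called, provided that their average log2 CPM reached 1 and, in the arms, that on and off libraries did not overlap. Members outside this rule and the examples from the pathway lists were named after their values were seen.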

Additional observations from a re-analysis of the deposited data

Results flagged for a closer look

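The results below were set apart because the response to induction differed between cultures or tissues by a test of the difference itself (edgeR's quasi-likelihood test with Benjamini-Hochberg adjustment). All values are differences of log2 fold changes, and no explanation was weighed.

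In COL, 6 members responded higher in BRAFp53 than in BRAF. Named among them were Sult1c2 (1.72), Gstp3 (1.31), Gstm4 (1.28), Gstm3 (1.23) and Gstp1 (0.85). Each of these 5 lost its call without the COL BRAF off library 1, with adjusted p of 0.13, 0.151, 0.172, 0.151 and 0.151 in that order. In SI, 31 members responded lower in BRAFp53 than in BRAF, and among them were Cyp4v3 (-2.36), Cyp2d22 (-2.35), Cyp4b1 (-2.32), Cyp4f14 (-2.14) and Ugt1a9 (-1.73).

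For BRAF, 32 members responded lower in COL than in SI, among them Cyp3a25 (-4.36), Ugt2b5 (-4.04), Cyp2j5 (-4.01), Ugt2a3 (-2.89) and Gstm3 (-2.79). Ugt2a3 lost its call without the SI library with Xist (-2.84, adjusted p = 0.0705) and without the COL BRAF off library 1 (adjusted p = 0.312). For BRAFp53, 15 members differed between the tissues. Among the 7 higher in COL were Gsta1 (1.55), Ugt1a1 (1.31), Gstp3 (1.22), Gstp1 (1.02) and Cyp2c70, whose fitted 6.63 comes from a group with 0 counts (COL BRAFp53 off) and is no bound on its size. Among the 8 lower were Ugt2b5 (-2.59), Cyp3a25 (-2.06), Cyp3a13 (-2.00), Ugt2b35 (-1.52) and Gstt1 (-1.14). For p53, 2 members differed, Cyp2u1 (-1.63) and Gstm2 (-0.88), both lower in COL. Leaving out 1 library ended the call of Cyp2u1 (adjusted p = 0.0877 without the SI p53 off library 1) and of Gstm2 (adjusted p = 0.281 without the COL p53 off library 1). The genotypes stem from different donor mice, so donor and genotype cannot be told apart in these differences.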

How the results depend on the processing

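Of the 81 named results, none changed direction under any alternative run. RLE scaling and no filter on low counts left all 81 on the same side of the threshold, as did at least 10 counts in every library for the 69 it could test. DESeq2 moved 3 and limma-voom 10 past the threshold, and 25 lost their call in at least 1 setting that left out a library or culture. RLE against TMM shifted the median of all genes by at most 0.0549 (log2). The cause of these moves was not tested. The replicate numbers did not pair the libraries (correlations of deviations from -0.0709 to 0.0902 over the 6 cultures). With the number as a replicate block, the counts were 1 in COL p53 and 0 for BRAFp53 minus BRAF in COL, and 8 of 68 named calls were lost; the other counts stayed within 1.5 times.

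Without a filter on low counts, which tests more genes, the counts of members called were 44 in COL BRAFp53 (36.1%, against 13.4% of all genes tested so), 26 in COL p53 (21.3%, 1.87%), 41 in SI BRAFp53 (33.6%, 9.37%), 2 in SI p53 (1.64%, 0.576%), 22 for BRAFp53 minus BRAF in COL (18%, 4.31%), 33 for COL minus SI in BRAFp53 (24.4%, 4.87%) and 30 in p53 (22.2%, 1.54%). DESeq2 called 14 in COL p53 (19.7%, 2.28%), 13 for BRAFp53 minus BRAF in COL (19.4%, 10.2%) and 12 for COL minus SI in p53 (15.8%, 1.14%), and limma-voom called 7 in COL p53 (7.69%, 0.195%) and 1 for COL minus SI in p53 (0.98%, 0.0966%). Asking also for a log2 fold change of 1 or more in size left 19 in COL BRAF, 17 in COL BRAFp53, 21 in SI BRAF, 15 in SI BRAFp53 and 1 for COL minus SI in p53. For the fold threshold no share over all genes was computed, so its counts describe the members alone. Without near-identical members, of which there are fewer to test, 16 were called in COL BRAFp53, 1 in COL p53, 15 in SI BRAFp53 and 40 between the off tissues. These are calls of the main fits, whose shares over all genes are given above. Without the 2 SI cultures that expressed Xist, an alternative chosen after seeing the data, 13 were called between the off tissues, and 6 of 13 named calls were lost.

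Leaving out 1 library in turn gave 0 to 3 calls in COL p53, 0 to 10 for BRAFp53 minus BRAF in COL and 17 to 32 in SI, and 21 to 31, 8 to 14 and 0 to 3 for COL minus SI in BRAF, BRAFp53 and p53. The counts were 24 to 27 in COL BRAF, 20 to 27 in COL BRAFp53, 34 to 40 in SI BRAF, 18 to 25 in SI BRAFp53, 0 in SI p53 and 44 to 61 between the off tissues. The lone library of a group was then assumed to vary like the others. Shares over all genes are not given for these settings, so their counts describe the members alone. With 2 libraries of 1 culture per group, donors could not be compared within a genotype. Members that the filter on low counts removed were tested only in the run without that filter, which tested 122 members in each tissue.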
